A study of Mus musculus with 8 samples.

Results

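The collagen genes described here are those whose symbol consists of Col, a number, the letter a and a second number. This rule took 43 of the 26586 genes listed in the count table, and the 43 were placed by the known structure of their chains in a fibrillar class of 11, a basement membrane class of 8 and a class of 24 other collagens. RNA-Seq had been performed on primordial follicles freed by enzyme digestion from postnatal day 3 ovaries of C57Bl/6 x CBA mice, in 4 mito-supplemented and 4 control samples. The mito-supplemented mice were of the third generation descended from founders made by ICSI, in which each oocyte had received, together with the spermatozoon, mitochondria isolated from egg precursor cells of the same strain. The controls were colony mice. Each sample is a pool of follicles, and its RNA was amplified before sequencing. The labels number the samples as biological replicates but do not say that each came from a separate animal, so the p values measure the spread between these samples, which may in part be technical. The titles also carry code prefixes that some samples share, and what a prefix marks is not stated. Prefixes differ within each group, but no prefix occurs in both groups, so the groups cannot be compared within a prefix. Mito-supplemented samples 1 to 3 share a prefix, and sample 4 has its own. Controls 1 and 2 share a prefix, and controls 3 and 4 share another. Summing counts by prefix leaves a pair of sums in each group, and such sums were therefore fitted as an alternative only.

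Collagens are secreted as triple helices of 3 alpha chains, either copies of one chain or a set fixed for each type. Fibrillar types such as I, III and V build the fibres of connective tissue and are made in the ovary largely by stromal cells. Type IV chains form the sheet-like network of basement membranes, among them the basal lamina that encloses each follicle, and types XV and XVIII lie at the edge of such membranes. The other class holds the beaded filaments of type VI, the FACIT collagens that coat fibrils, of which type XII is one, the membrane-spanning collagens and several network formers.

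Total counts per library were between 10370045 and 19760763, and the reads that fell on collagen genes were between 11619 in control 2 and 96405 in mito-supplemented 3. The mitochondrial rRNA genes Rnr1 and Rnr2 took 74.0% of the counts in control 4 and between 14.9% and 44.3% in the other libraries, so that control 4 held 2559876 counts outside the rRNA genes against at least 7280214 in each of the others. Control 4 therefore stands apart in depth, and the main results are given with and without it. Values below are CPM, the counts scaled to a common library total, after TMM normalization, which scales each library to the genes that most libraries share. A count of 0 allows up to 3 counts, which is between 0.123 and 0.591 CPM depending on the library, and this covers counting error only.

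The labelled cell type was checked against its markers first. All 10 oocyte markers were detected, with a summed level of 1810 CPM in control 1, 145 in control 2, 98.5 in control 3, 352 in control 4, 221 in mito-supplemented 1, 105 in mito-supplemented 2, 390 in mito-supplemented 3 and 59.0 in mito-supplemented 4. Control 1 was far above the other 7 libraries, which overlapped between the groups. The oocyte marker of highest mean CPM, not divided by length, was the receptor gene Kit. Markers of the somatic cells of the ovary were also present in every library. The summed level of the 10 stroma markers, led by the microfibril gene Mfap4, was 216, 191, 355 and 1195 CPM in controls 1 to 4 and 266, 388, 1226 and 968 in mito-supplemented 1 to 4. These libraries thus carry RNA of stroma and other cell types beside that of oocytes and granulosa cells. In such bulk samples, a difference in the number of cells of a type and a difference in RNA per cell cannot be told apart.

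By level, the leading collagens were those of fibrils and of the matrix around them. Per kb of exon, on the scale of mean CPM over the 8 libraries, Col1a1 was at 54.2, Col3a1 at 39.7, Col12a1 at 27.9, Col6a2 at 25.7, Col4a1 at 19.7, Col4a2 at 15.9, Col1a2 at 15.9, Col6a1 at 15.2, Col18a1 at 12.3 and Col5a1 at 11.0 CPM per kb. The spread over libraries was wide against these steps. For example, Col1a1 was at 37.0 ± 31.7 CPM per kb (SD, n = 4) in control and 71.4 ± 30.5 in mito-supplemented libraries, and Col3a1 at 24.7 ± 22.2 and 54.7 ± 18.8. Within libraries, Col1a1 was above Col3a1 in 7 of 8 and Col3a1 above Col12a1 in 7 of 8, whereas for the later neighbours the first was above the second in 3 to 6 of 8. Length was the union of all annotated exons; with the longest coding transcript in its place, Col3a1 (69.98 CPM per kb) came before Col1a1 (59.97), so their order depends on the length used. Together Col12a1, Col3a1 and Col1a1 held 16.6%, 15.3% and 13.9% of the 317753 collagen counts.

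At the other end, 6 of the 43 collagen genes did not pass the expression filter and were not tested. They were Col13a1 with 104 counts over all 8 libraries, Col22a1 with 72, Col19a1 with 37, Col5a3 with 25, Col2a1 with 16 and Col9a1 with 14. Col2a1, the chain of cartilage type II collagen, had counts only in mito-supplemented 2 and 3. Of 8 cartilage and bone markers, only Sox9 passed the filter, and it made up 93.9% of their summed level, which was between 0.949 and 22.8 CPM; its log2 fold change was 0.29 ± 1.07. It was 2.47 without control 3 and turned to -0.03, -0.08 and -0.55 without control 1, control 2 and mito-supplemented 4. Matn1, next in level, had 22 counts. Emid2, an older symbol of Col26a1, fell outside the symbol rule and had 451 counts.

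The quasi-likelihood test of edgeR, with Benjamini-Hochberg adjustment over all 13873 genes tested, called 0 of the 37 collagen genes that passed the filter, at an adjusted p under 0.05 and a fold change of at least 2. It called 0 genes of all tested (0%). The likelihood ratio test, which the study used, called 0 collagen genes too, while it called 57 genes higher (0.411%) and 1 gene lower (0.00721%) in mito-supplemented libraries among all tested. At an unadjusted p under 0.05 in the quasi-likelihood test, 2 collagen genes were higher, against 736 of all genes (5.31%), and 0 were lower, against 333 (2.4%). The share of collagen genes at that threshold, Col4a5 and Col12a1, was thus close to that of all genes. With DESeq2, 1 collagen gene was called, Col4a5, with a log2 fold change of 1.85 and an adjusted p of 0.0476 in the DESeq2 Wald test (0.0141 to 0.963 over all fits run), against 0.944% of all genes called higher. The limma-voom fit with sample quality weights called 13 collagen genes higher, where it called 10.4% of all genes, and 1 lower, Col17a1, where it called 8.22%.

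Direction was nevertheless shared by most members. The log2 fold change of mito-supplemented over control libraries was above 0 for 28 of the 37 collagen genes tested and below 0 for 9, with a median of 0.78 beside -0.10 over all genes tested. Of all 13873 genes tested, 6225 were above 0 and 7648 below 0. In the basement membrane class, all 8 members were above 0, between 0.78 and 1.85, and the median was 1.12. The fibrillar class had 8 of 9 tested members above 0 and a median of 0.71. The other class was mixed, with 12 of 20 above 0 and a median of 0.55. Leaving out 1 library gave medians between 0.89 without mito-supplemented 3 and 1.61 without control 4 for the basement membrane class. The range was 0.39 without control 2 to 1.2 without control 4 for the fibrillar class, and 0.32 without control 3 to 0.85 without mito-supplemented 1 for the other class, whose median was 0.27 with an offset for GC content and exon length. Scaling by library size alone moved the median of all genes by over 0.1, to 0.17. The genes at an unadjusted p under 0.05 went from 736 higher and 333 lower to 1289 higher and 53 lower, with 15 collagen genes among those higher. On that scale the median was 1.17 for the fibrillar and 1.71 for the basement membrane class. The median of the other class was between 0.27 and 1.02 over all alternatives run. Every class median was above 0 under each scaling and each test run.

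**Figure D1:**
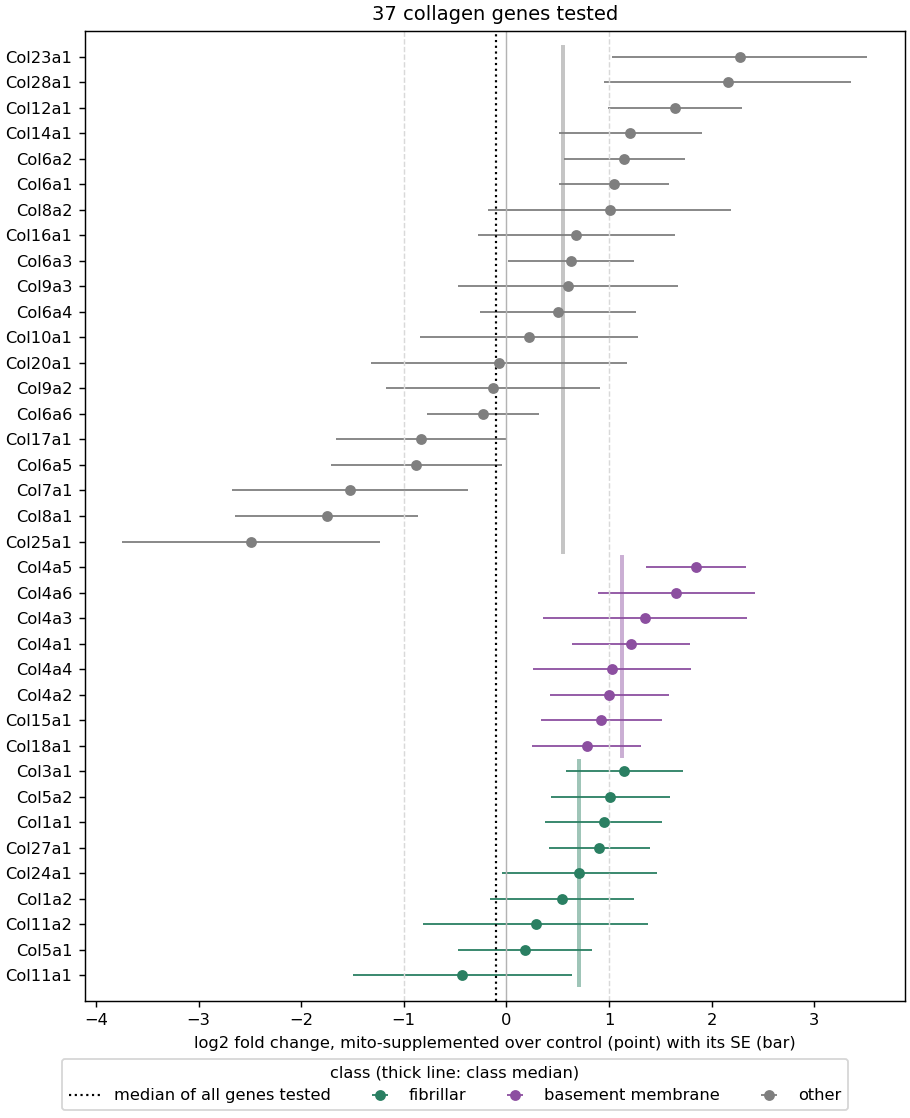
Log2 fold change of mito-supplemented over control libraries (x axis) for the 37 collagen genes tested (y axis), with points for the edgeR estimate, bars for its SE, colours for the class, thick lines for the class medians and a dotted line for the median of all genes tested. All 8 basement membrane genes lie above 0, with a median of 1.12, whereas the other class runs from -2.49 for Col25a1 to 2.27 for Col23a1.

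The same shift appeared in the level that each class reached in each library. The collagen genes summed to 1092 CPM in control 1, 919 in control 2, 1249 in control 3 and 3742 in control 4, and to 1988, 3228, 4362 and 3767 CPM in mito-supplemented 1 to 4. Controls 1 to 3 were below all mito-supplemented libraries, whereas control 4 lay within them, so the groups overlapped. This overlap depends on the scaling. It stayed with RLE, another normalization, with control 4 at 3770 CPM and the lowest mito-supplemented library at 1956 CPM. It also stayed with the rRNA genes left out, at 6598 and 3541 CPM. By library size alone, whose totals hold the rRNA counts, control 4 was at 1833 CPM and the lowest mito-supplemented library at 2079 CPM, and the groups did not overlap. They did not overlap for the fibrillar sum either on that scale, but did for the basement membrane and other sums. The log2 ratio of the group means was then 1.54 for all collagens, 1.55 for the fibrillar, 1.68 for the basement membrane and 1.47 for the other class. With TMM, the group means were 1750 ± 1334 CPM and 3336 ± 1011 CPM (SD, n = 4), a ratio of 1.91, and their difference was 1586 CPM. Without control 4, the log2 ratio of the group means went from 0.93 to 1.64 for all collagens, from 0.84 to 1.67 for the fibrillar class, from 1.11 to 1.70 for the basement membrane class and from 0.96 to 1.58 for the other class.

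Control 4 stood apart for single members as well. It was the highest control for 22 of the 37 genes tested (27.3% of all genes), at or above the lowest mito-supplemented library for 32 (74.4%), and above the mito-supplemented mean for 21 (41.4%). Without it, the quasi-likelihood test of edgeR still called 0 collagen genes, but 13 had an unadjusted p under 0.05 and were higher, where 9.33% of all genes were. The likelihood ratio test without control 4 called 6 collagen genes higher, Col12a1, Col14a1, Col3a1, Col4a2, Col6a1 and Col6a2, where it called 2.38% of all genes. In 12 of the 37, every mito-supplemented library was then above every control, against 8.61% of all genes, and in the full set this held for 1 collagen gene, Col4a5, against 3% of all genes. The reverse, every mito-supplemented library below every control, held for 0 collagen genes and 2.03% of all genes. Other single libraries moved these counts too. The number of collagen genes at an unadjusted p under 0.05 was 6 without mito-supplemented 1, all higher, where 14.1% of all genes reached that threshold and 6.98% were higher. It was 1 without mito-supplemented 2, where 4.04% of all genes reached it and 3.21% were higher. The likelihood ratio test called Col4a5 without mito-supplemented 1, with a log2 fold change of 2.13 and an adjusted p of 0.0141 by that test, where it called 1.5% of all genes higher. The number with every mito-supplemented library above every control was 2 without control 1 (5.59% of all genes), 4 without mito-supplemented 1 (7.61%) and 2 without mito-supplemented 3 (3.95%).

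**Figure D2:**
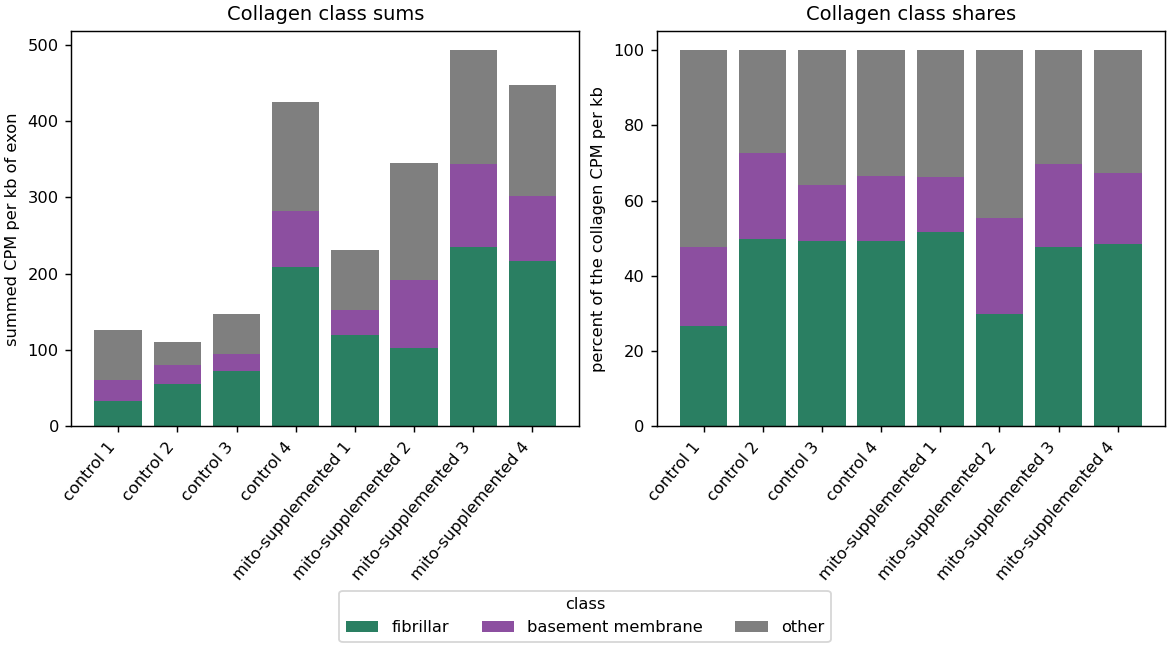
Summed CPM per kb of exon for the fibrillar, basement membrane and other collagens in each of the 8 libraries (left, stacked bars) and the share of each class in percent (right). Control 4 is as high as the mito-supplemented libraries, and the fibrillar share is lowest in control 1 (26.7%) and mito-supplemented 2 (29.8%).

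The balance of the classes differed little between the groups. Of the collagen CPM per kb, the fibrillar class held 43.7 ± 11.4% (SD, n = 4) in control and 44.4 ± 9.91% in mito-supplemented libraries. The basement membrane class held 19.0 ± 3.59% and 20.3 ± 4.71%. These differences were smaller than the spread between replicates, so that no shift between fibrillar collagens, as a sign of stroma, and basement membrane collagens, as a sign of basal lamina, was detectable. The ratio of basement membrane to fibrillar CPM per kb was 0.787, 0.459, 0.304 and 0.349 in controls 1 to 4 and 0.281, 0.859, 0.464 and 0.391 in mito-supplemented 1 to 4. It was highest in mito-supplemented 2 and control 1, and the groups overlapped.

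Among the fibrillar collagens, Col1a1 and Col1a2 encode the chains of type I, the main fibril of connective tissue. Col1a1 was at 95.9, 139, 187 and 549.6 CPM in controls 1 to 4 and at 352, 248, 604 and 669 CPM in mito-supplemented 1 to 4. All mito-supplemented libraries were above controls 1 to 3, and control 4 was above 2 of them. Its log2 fold change was 0.95 ± 0.57 (SE), with an adjusted p of 0.693 in the quasi-likelihood test of edgeR, and 1.76 without control 4. Col1a2 was at 55.6, 78.2, 99.5 and 409 CPM in the controls and at 121, 91.7, 434 and 289 CPM in mito-supplemented libraries. Mito-supplemented 2 lay below control 3, and the log2 fold change of 0.54 ± 0.70 was smaller than its error. It was 1.61 without control 4 and 0.08 without mito-supplemented 3.

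Col3a1, the chain of type III collagen, which accompanies type I in pliable tissues, was at 86.7, 133, 186 and 563 CPM in controls 1 to 4 and at 342, 418, 717 and 669 CPM in mito-supplemented 1 to 4. The pattern was that of Col1a1, with control 4 inside the mito-supplemented range and the other controls below it. The log2 fold change was 1.15 ± 0.57, with an adjusted p of 0.662 in the quasi-likelihood test, and 2.01 without control 4. Col5a1, a chain of type V, which sets the diameter of type I fibrils, was at 9.49, 92.3, 88.3 and 160.2 CPM in the controls and at 122, 51.7, 105 and 118 CPM in mito-supplemented libraries. It was lowest in control 1 and highest in control 4, and its log2 fold change of 0.18 ± 0.66 turned to -0.18 without control 1. Over 212 of 8490 bases, the exons of Col5a1 overlap those of a pair of genes on the other strand. Since the strand setting of the counting is not given, reads from these bases cannot be told apart. The 5 other fibrillar genes tested lay between -0.43 for Col11a1 and 1.01 for Col5a2, with adjusted p values between 0.676 and 0.943 in the quasi-likelihood test.

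Ratios taken within a library show how the chains varied against each other. On the scale of CPM per kb, Col3a1 to Col1a1 was 0.605, 0.642, 0.664 and 0.685 in controls 1 to 4 and 0.649, 1.13, 0.793 and 0.669 in mito-supplemented 1 to 4. The controls were close to each other although their Col1a1 levels differed widely, and mito-supplemented 2 was the highest. Col1a1 to Col1a2 was between 2.55 and 5.53 with a median of 3.46, and the median was 1.65 with the length of the longest coding transcript, since the exon union of Col1a2 (12426 bases) is far longer than that transcript (5348 bases). Col5a1 to Col5a2 varied most among the fibrillar pairs, from 0.581 in control 1 to 6.16 in control 2.

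**Figure D3:**
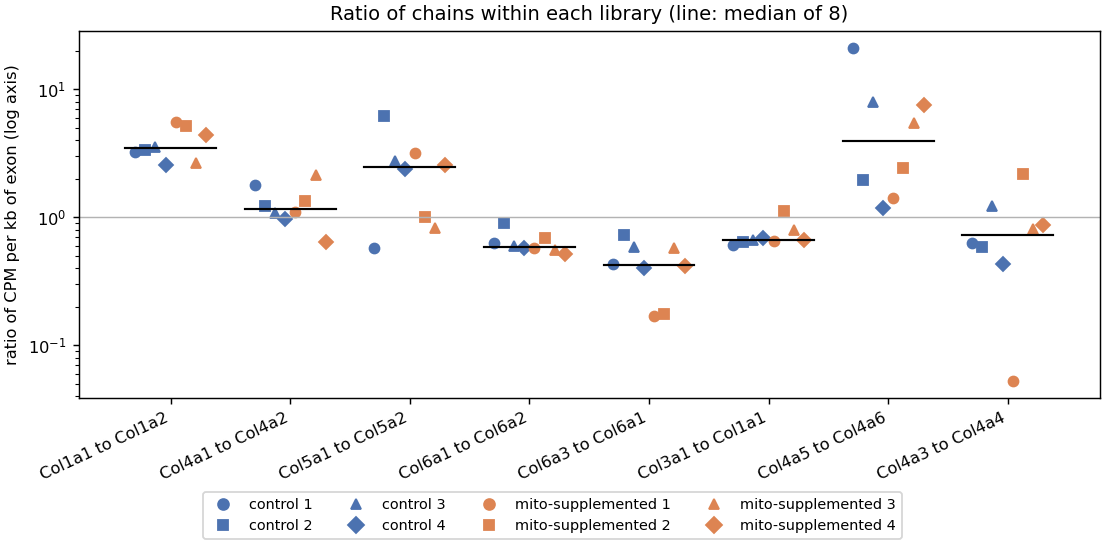
Ratio of CPM per kb of exon between collagen chains in each of 8 libraries (y axis, log scale), with 1 symbol per library, colours for the groups and a line for the median. Col6a1 to Col6a2 spans 0.518 to 0.905, whereas Col4a3 to Col4a4 spans 0.0526 to 2.17 at far lower counts.

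In the basement membrane class, Col4a1 and Col4a2 encode the chains of the type IV network found in nearly all basement membranes. Col4a1 was at 63.7, 66.6, 46.7 and 178 CPM in controls 1 to 4 and at 75.4, 242, 369 and 136 CPM in mito-supplemented 1 to 4. Control 4 was above 2 of the mito-supplemented libraries, and mito-supplemented 1 was just above controls 1 to 3. Col4a2 was at 31.8, 48.5, 38.0 and 162 CPM and at 60.7, 160.4, 153 and 187 CPM, again with control 4 inside the mito-supplemented range. Their log2 fold changes were 1.21 ± 0.57 and 1.00 ± 0.58, with adjusted p values of 0.655 and 0.682 in the quasi-likelihood test, and 1.83 and 1.85 without control 4. Without mito-supplemented 3, Col4a1 was at 0.79. The ratio of Col4a1 to Col4a2 per kb was between 0.646 in mito-supplemented 4 and 2.13 in mito-supplemented 3, with a median of 1.16.

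Col4a5, a chain of the type IV networks that is mutated in Alport syndrome, had the lowest p of all collagen genes. It was at 15.2, 8.93, 21.5 and 13.2 CPM in controls 1 to 4 and at 23.6, 55.5, 41.1 and 92.1 CPM in mito-supplemented 1 to 4. The groups did not overlap, although mito-supplemented 1 was only just above control 3, and control 4 was among the low libraries here. The log2 fold change was 1.85 ± 0.49, with an unadjusted p of 0.00337 and an adjusted p of 0.544 in the quasi-likelihood test and an adjusted p of 0.116 in the likelihood ratio test, so it did not pass the threshold. Without control 4 the log2 fold change was 1.81, and over all alternatives run it was between 1.47 and 2.13. Its neighbour Col4a6, which the rule for named genes did not take, was at 0.859, 5.46, 3.19 and 13.2 CPM in the controls and at 19.7, 27.4, 8.87 and 14.6 CPM in mito-supplemented libraries. Control 4 was above mito-supplemented 3, so the groups overlapped, and the log2 fold change was 1.66 ± 0.76, and 2.49 without control 4. Col4a6 was singled out after its values were seen.

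Col18a1, whose product carries endostatin at its end, was at 56.3, 36.6, 33.7 and 128 CPM in controls 1 to 4 and at 44.7, 126, 164 and 103 CPM in mito-supplemented 1 to 4. Mito-supplemented 1 was below control 1, and the log2 fold change was 0.78 ± 0.53, and 1.40 without control 4. The remaining members, Col4a3, Col4a4, Col4a6 and Col15a1, lay between 0.93 and 1.66, with adjusted p values between 0.655 and 0.736 in the quasi-likelihood test. Col4a3 had 702 counts, and its exons overlap a gene on the other strand over 563 of 9967 bases. Reads from these bases cannot be told apart, which bears on its fold change and on its ratio to Col4a4.

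The 6 type IV genes lie in 3 pairs with the start sites facing each other, so each pair shares the stretch between the starts. The log2 fold changes within the pairs were 1.21 and 1.00 for Col4a1 and Col4a2 on chromosome 8, 1.35 and 1.03 for Col4a3 and Col4a4 on chromosome 1, and 1.85 and 1.66 for Col4a5 and Col4a6 on chromosome X. The sequences at these starts are shown because both genes of a pair start there. They are from RefSeq on GRCm38.p6, which lists a promoter for 35 of the 43 collagen genes. The first Col4a1 and Col4a2 exons overlap by 22 bases, in capitals here with 4 bases on either side, so reads from the overlap cannot be given to one gene. The stretch between Col4a4 and Col4a3 is 71 bases, shown in the direction of Col4a4. For the third pair, whose starts are 1308 bases apart, the 216 bases before the Col4a5 start and the 250 bases before the Col4a6 start are shown. In the last 3, capitals mark the motif CCAAT, the motif spelled GGGCGG and the motif spelled TATAA, searched on both strands; no match overlaps another.
Col4a1 and Col4a2 overlap, chr8:11312801-11312830, plus strand, exonic: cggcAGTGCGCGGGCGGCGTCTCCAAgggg
Col4a4 to Col4a3, chr1:82586850-82586920, minus strand, between the genes: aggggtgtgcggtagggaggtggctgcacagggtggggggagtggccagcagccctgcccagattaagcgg
Col4a5 upstream, chrX:141475169-141475384, plus strand, between the genes: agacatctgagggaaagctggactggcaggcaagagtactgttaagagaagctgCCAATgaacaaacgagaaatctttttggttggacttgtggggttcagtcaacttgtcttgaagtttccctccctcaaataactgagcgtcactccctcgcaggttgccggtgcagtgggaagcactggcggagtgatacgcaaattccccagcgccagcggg
Col4a6 upstream, chrX:141474077-141474326, minus strand, between the genes: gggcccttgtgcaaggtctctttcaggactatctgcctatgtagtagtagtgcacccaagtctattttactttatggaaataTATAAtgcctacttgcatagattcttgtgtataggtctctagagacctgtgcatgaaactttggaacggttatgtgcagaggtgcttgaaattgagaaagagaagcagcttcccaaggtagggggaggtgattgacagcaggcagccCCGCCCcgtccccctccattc

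Within these windows, Col4a5 had 1 CCAAT, which 30.5% of 32851 listed promoters hold in a window of 216 bases, and neither GGGCGG (27.9%) nor TATAA (19%). Col4a6 had 1 GGGCGG, read on the other strand as CCGCCC, and 1 TATAA, against 32.7% and 22.8% of promoters in a window of 250 bases, and no CCAAT (33.8%). The 71 bases between Col4a4 and Col4a3 held none of the 3, against 13.3% for CCAAT, 20.7% for GGGCGG and 8.14% for TATAA. These are matches of letters only.

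Of the other collagens, Col12a1, a FACIT collagen that binds to the surface of type I fibrils, was the only one with an unadjusted p under 0.05. It was at 109, 73.5, 118 and 524 CPM in controls 1 to 4 and at 336, 1105, 653 and 482 CPM in mito-supplemented 1 to 4. Mito-supplemented 2 was the highest library, and control 4 was above 2 mito-supplemented libraries, so the groups overlapped. The log2 fold change was 1.64 ± 0.66, with an unadjusted p of 0.0307 and an adjusted p of 0.626 in the quasi-likelihood test, and without control 4 it was 2.70. The likelihood ratio test without control 4 gave Col12a1 an adjusted p of 0.00326.

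Col6a1 and Col6a2 encode chains of type VI collagen, the beaded filament of the matrix around cells. Col6a2 was at 67.7, 46.6, 94.3 and 325 CPM in controls 1 to 4 and at 181, 268, 331 and 400.0 CPM in mito-supplemented 1 to 4. Col6a1 was at 22.4, 22.2, 29.6 and 99.2 CPM and at 55.1, 96.6, 96.9 and 109 CPM. In both genes, controls 1 to 3 were below every mito-supplemented library and control 4 was inside their range. The log2 fold changes were 1.15 ± 0.59 and 1.05 ± 0.53, and without control 4 they were 2.10 and 1.87. The ratio of Col6a1 to Col6a2 per kb was between 0.518 and 0.905 with a median of 0.589 (0.351 with the longest coding transcripts), the narrowest span of the 8 chain ratios, and Col6a3 to Col6a1 was between 0.169 and 0.722.

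Col6a6, which encodes one of the longer type VI chains, did not follow them. It was at 146, 27.6, 39.8 and 146 CPM in controls 1 to 4 and at 54.0, 87.4, 68.2 and 96.9 CPM in mito-supplemented 1 to 4. Controls 1 and 4 were the highest libraries, and the log2 fold change of -0.23 ± 0.55 turned to 0.13 without control 1 and without control 4 alike. Its neighbour on chromosome 9, Col6a5, was at 154 CPM in control 1 and between 7.70 and 69.2 CPM in the other libraries, and its log2 fold change went from -0.88 to 0.28 without control 1 and was 1.16 with limma-voom. Control 1, the library highest in oocyte markers, was also highest for Col25a1, a membrane-spanning collagen, at 27.4 CPM against at most 9.25 in the others, and its log2 fold change went from -2.49 to -1.27 without that library and to -0.02 with limma-voom, which gave that library the lowest weight. Col8a1, a network former of blood vessels and of Descemet's membrane, was at 89.9 CPM in control 3 and at most 21.5 CPM elsewhere, and its log2 fold change went from -1.75 to -0.21 without control 3. Col6a5, Col25a1 and Col8a1 were singled out after their values were seen. The 16 other members tested that the rule did not name lay between -2.49 and 2.27, with 9 above 0 and 7 below, and adjusted p values between 0.664 and 0.988 in the quasi-likelihood test.

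**Figure D4:**
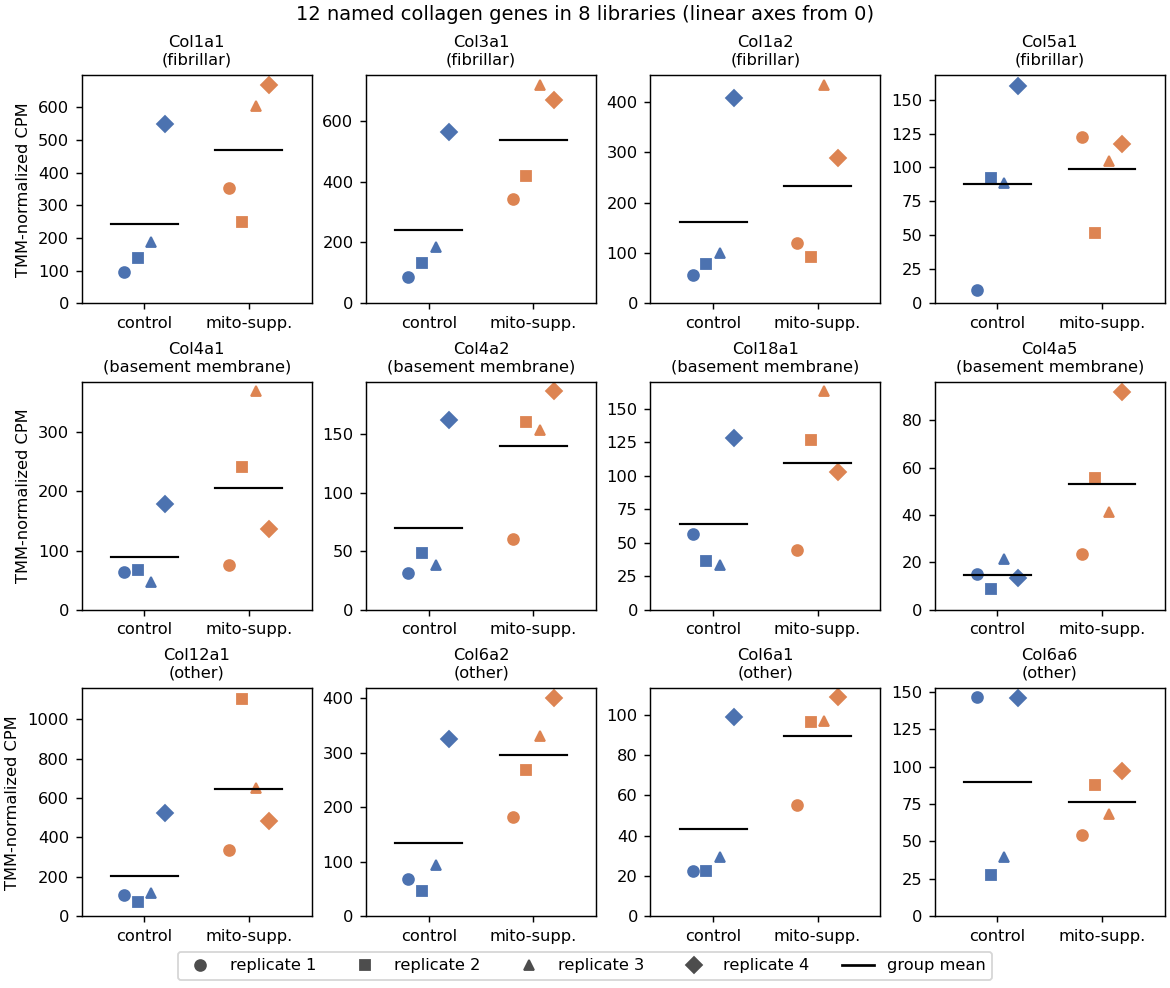
TMM-normalized CPM (y axes, linear from 0) of the 12 collagen genes named by level or by p in the control and mito-supplemented libraries, with 1 symbol per replicate and a line for the group mean. Control 4 (diamond) lies within the mito-supplemented range for most genes, and for Col4a5 the groups do not overlap.

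Genes that make, process or bind collagens were described from lists by their counts. Of 19 genes of collagen synthesis and export, 16 were above 0, with a median log2 fold change of 0.79 (0.53 without control 2). At an unadjusted p under 0.05, 1 of the 19 was higher, a share close to the 5.31% of all genes. It was Glt25d1, which adds galactose to collagen hydroxylysine. The genes of highest mean CPM in the list were Mia3, which helps to load collagen for export, and P4hb, a subunit of the prolyl hydroxylase. Their log2 fold changes were -0.21 and 0.48, the former turning to 0.15 with scaling by library size alone. Mia3 was at -0.02 without mito-supplemented 4 and P4hb at 0.27 without mito-supplemented 3. Of 11 tested genes of collagen processing and crosslinking, 9 were above 0 and the median was 0.93 (1.62 without control 4). Pcolce, which enhances removal of the procollagen C-propeptide, and the crosslinking enzyme gene Lox had log2 fold changes of 1.48 and 1.24 at unadjusted p values of 0.0108 and 0.0325, and the abundant Pxdn, for the peroxidase that crosslinks type IV collagen, had 1.05 ± 0.50. Neither list had a gene called by either edgeR test, but without control 4 the likelihood ratio test called Pcolce and Loxl2, another crosslinking enzyme gene, at log2 fold changes of 2.02 and 2.66 and adjusted p values of 0.0143 and 0.00757 by that test, where it called 2.38% of all genes higher. With all libraries, Loxl2 was at 0.81 ± 0.88, and control 4 was its highest library, at 89.0 CPM. Lox was at 0.82 without mito-supplemented 3 and Pxdn at 1.62 without control 4.

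The partners of type IV collagen in basement membranes held 16 genes, of which 14 were above 0, with a median of 0.68 (0.36 without control 2 and 1.36 without control 4). Lama5, an alpha chain of the laminins, was at 6.30, 4.35, 12.1 and 19.5 CPM in controls 1 to 4 and at 31.1, 75.2, 28.2 and 134.5 CPM in mito-supplemented 1 to 4. Every mito-supplemented library was above every control, as in 3% of all genes. The log2 fold change was 2.68 ± 0.66, with an adjusted p of 0.54 in the quasi-likelihood test (0.00736 to 0.963 over all fits run). The likelihood ratio test gave an adjusted p of 0.0402 and called it, against 0.411% of all genes called higher. This call was lost without any 1 of controls 1 to 3, mito-supplemented 2 or mito-supplemented 4. Lamb2, a laminin beta chain, was also separated upward, as were 3% of all genes. Its log2 fold change was 1.83 ± 0.43, with an adjusted p of 0.0779 in the likelihood ratio test (0.00644 to 0.963 over all fits run). Without control 4, the likelihood ratio test called Lama5, Lamb2, Lamc3 and Nid2 of this list, where it called 2.38% of all genes higher. Lamc3 and Nid2 then had log2 fold changes of 7.46 and 2.13, against 0.73 ± 1.83 and 0.82 ± 0.71 with all libraries. Lamc3 had 0, 0 and 1 counts in controls 1 to 3 and 57 in control 4, so the size of its 7.46 cannot be read. Agrn, the proteoglycan agrin, had a log2 fold change of 0.89 at an unadjusted p of 0.0481. The partners of highest mean CPM, not divided by length, were Hspg2 for perlecan and Lamc1 for a laminin gamma chain. They had log2 fold changes of 0.63 ± 0.67 and 0.48 ± 0.60. Hspg2 was at 1.68 without control 4 and 0.18 without mito-supplemented 4, and Lamc1 at 1.24 without control 4 and 0.17 without control 2.

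All 10 genes of the fibril-associated matrix were above 0, with a median of 0.87 (1.6 without control 4 and 0.58 without control 1 or without mito-supplemented 3). Fmod, a small proteoglycan that binds type I fibrils, was at 0.859, 0.316, 1.94 and 1.38 CPM in controls 1 to 4 and at 6.92, 11.0, 7.87 and 17.8 CPM in mito-supplemented 1 to 4. Every mito-supplemented library was above every control, as in 3% of all genes, at levels of few counts. The log2 fold change was 3.28 ± 0.73, with an adjusted p of 0.45 in the quasi-likelihood test (0.000676 to 0.963 over all fits run). The likelihood ratio test gave an adjusted p of 0.0123 and called it, against 0.411% of all genes called higher. The call was lost without control 2, mito-supplemented 2 or mito-supplemented 4. Eln, for elastin, had a log2 fold change of 1.87 at an unadjusted p of 0.0388 in the quasi-likelihood test. The genes of highest mean CPM, not divided by length, were Fbn2, for a fibrillin, and Bgn, for biglycan, with log2 fold changes of 0.54 and 0.66. Without control 4, Eln was at 3.21, Fbn2 at 1.11 and Bgn at 1.46. The likelihood ratio test then called Eln with an adjusted p of 0.0015 by that test (0.0015 to 0.963 over all fits run), against 2.38% of all genes called higher. Fbn2 was at 0.22 without mito-supplemented 3, and Bgn turned to -0.05 without mito-supplemented 4. Of 9 tested collagen receptors, 7 were above 0 with a median of 0.36, and 0 had an unadjusted p under 0.05. The median was 0.15 without mito-supplemented 3, 0.60 without control 4 and 1.21 with scaling by library size alone. The log2 fold change was 0.36 for Itgb1, an integrin beta chain, and 0.75 for the kinase gene Ddr2. Without mito-supplemented 3 these were 0.15 and 0.23, and Ddr2 was at 1.62 without control 4. In the list of collagenases, gelatinases and their inhibitors, the collagenase genes Mmp8 and Mmp13 and the gelatinase gene Mmp9 did not pass the filter. Mmp8 had 1397 of its 1519 counts and Mmp9 380 of its 447 in mito-supplemented 1. The 6 genes tested, Mmp2, Mmp14, Timp1, Timp2, Timp3 and Reck, were above 0, with a median of 1.17. The inhibitor genes Timp2 and Timp3 had log2 fold changes of 1.96 and 1.36 at unadjusted p values of 0.0027 and 0.00931, and the abundant membrane-bound protease gene Mmp14 had 0.97 (1.49 without control 4). The likelihood ratio test called Timp3 without control 4 and Timp2 without mito-supplemented 1, with adjusted p values of 0.0446 and 0.0123 by that test (0.0124 to 0.963 and 0.0123 to 0.963 over all fits run). In these fits it called 2.38% and 1.5% of all genes higher.

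Markers of several cell types moved with the collagens across libraries. The 10 granulosa markers, led by Wt1, summed to 284, 209, 284 and 884 CPM in controls 1 to 4 and to 541, 1193, 777 and 1332 CPM in mito-supplemented 1 to 4. The 10 surface epithelium markers, led by Upk3b, summed to 146, 58.6, 39.1 and 368 CPM and to 272, 854, 348 and 669 CPM. In both lists, as for the collagens, controls 1 to 3 were below every mito-supplemented library and control 4 was inside their range. This held with RLE and without the rRNA genes too, whereas by library size alone all 4 controls were below. All 10 surface epithelium markers were above 0, with a median of 1.80 (3.02 without control 4). At an unadjusted p under 0.05, 6 were higher, against 5.31% of all genes. They were Upk1b, Upk3b, Krt7, Krt8, Aldh1a2 and Muc16, with log2 fold changes between 1.57 and 5.07. The likelihood ratio test called Upk1b, the highest of them, with an adjusted p of 0.000849 by that test (2.38e-07 to 0.963 over all fits run). It called 0.411% of all genes higher. Without control 4, that test called all 6 and Msln, with log2 fold changes between 2.42 for Krt8 and 4.90 for Upk1b, where it called 2.38% of all genes higher. The granulosa list had 9 of 10 above 0 and a median of 1.17 (1.99 without control 4), with 2 genes, Amhr2 and Lgr5, higher at an unadjusted p under 0.05 (log2 fold changes of 1.94 and 2.44), against 5.31% of all genes, and Wt1 had 1.37 ± 0.64. Without control 4, the likelihood ratio test called Amhr2, Gata4, Krt18, Krt19, Lgr5 and Wt1, the last at 2.33, against 2.38% of all genes called higher. Without mito-supplemented 1 it called Amhr2 and Lgr5, against 1.5% of all genes. The members not called in these fits were Kitl, Foxl2, Fst and Cdkn1b. With all libraries, Kitl was below 0, at -0.40 ± 0.51. Foxl2 was at 0.56 ± 0.67, Fst at 0.96 ± 0.77 and Cdkn1b at 0.39 ± 0.35.

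The stroma list had 9 of 10 markers above 0 and a median of 0.63, and 0 had an unadjusted p under 0.05; its most abundant genes Mfap4 and Dcn, for the fibril-binding decorin, had 0.33 ± 0.68 and 0.68 ± 0.76. Without control 4 these were 1.24 and 2.04, and without mito-supplemented 3 they were -0.12 and 0.17. The stroma median was 1.29 without control 4 and 0.30 without mito-supplemented 4. The 10 endothelial markers summed to 27.2, 29.7, 48.8 and 228 CPM in controls 1 to 4 and to 98.9, 228, 192 and 204 CPM in mito-supplemented 1 to 4. Kdr alone made up 66.8% of this sum averaged over the libraries. Of 9 tested, 6 were above 0, with 1.35 for Kdr and 0.85 for Cdh5. Flt1, Egfl7 and Tek were below 0, at -0.47, -0.29 and -0.003. The median of the list, 0.85, was 1.56 without control 4 and 0.14 without mito-supplemented 3. The likelihood ratio test called Esam, an endothelial adhesion molecule gene, with a log2 fold change of 3.35 and an adjusted p of 0.0123 by that test (0.000466 to 0.936 over all fits run), against 0.411% of all genes called higher. Without control 4 it also called Kdr, at 2.88, against 2.38% of all genes. The call of Esam was lost without control 2, control 3, mito-supplemented 2 or mito-supplemented 3. The 9 smooth muscle and pericyte markers, led by Myh11, summed to 37.6, 31.5, 58.5 and 261 CPM and to 50.7, 94.1, 131 and 364 CPM, and 6 of 8 tested were above 0, with 0.22 for Myh11 and 1.30 for Acta2. Their median of 0.64 turned to -0.04 without mito-supplemented 4, with 4 of 8 above 0, and was 2.02 without control 4. Myh11 turned to -0.06, -0.14 and -0.05 without control 1, control 2 and control 3. It turned to -0.73 and Acta2 went to 0.47 without mito-supplemented 4, and both were at 2.10 without control 4. Control 4 was high in all these lists. The oocyte list ran the other way, with all 10 markers below 0 and a median of -1.72, which became 0.21 without control 1, where 7 of 10 were above 0. Kit, at an unadjusted p of 0.0365, went from -2.06 to -0.54 without control 1, and Nlrp14 had -1.25 ± 1.14, turning to 0.20 without control 1. The part of each of these cell types in the collagen values was not tested.

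Blood cell markers followed another order. The 8 red cell markers in the table, led by Slc4a1, summed to 5326 CPM in control 2, 3468 in control 3 and 5674 in mito-supplemented 1, and to at most 85.9 CPM in the other 5 libraries; 5 were tested and all were below 0, with -0.47 ± 1.95 for Slc4a1 and -1.36 ± 1.95 for Ermap. This direction rested on single libraries, since the median of -0.47 turned to 0.41 without control 2, with 4 of 5 above 0, and was -5.74 without mito-supplemented 1. In the latter fit the likelihood ratio test called Alas2, Ermap and Rhag lower, at log2 fold changes of -4.21, -6.63 and -6.59. Their adjusted p values by that test were 0.0411, 0.0185 and 0.0262. It called 2.61% of all genes in that fit, and 1.5% were called higher. The 10 macrophage markers summed to 771 CPM in mito-supplemented 1 and 8.67 to 139 CPM elsewhere, with C1qb at 0 counts in all libraries. Lyz2 alone made up 75.5% of this sum averaged over the libraries. Of the list, 6 were tested and all were above 0, with 1.71 ± 1.74 for Lyz2 and 0.54 ± 1.76 for Ptprc. Their median of 0.90 turned to -1.96 without mito-supplemented 1, with 2 of 6 above 0, Lyz2 at -4.09 and Ptprc at -4.44. In that fit the likelihood ratio test called Lyz2 lower, with an adjusted p of 0.0215 by that test. Mito-supplemented 1 was the lowest mito-supplemented library in the collagen sum and was the lowest of its group for 18 of the 37 collagen genes tested (30.5% of all genes). Whether blood cells bear on the collagen values was not tested.

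**Figure D5:**
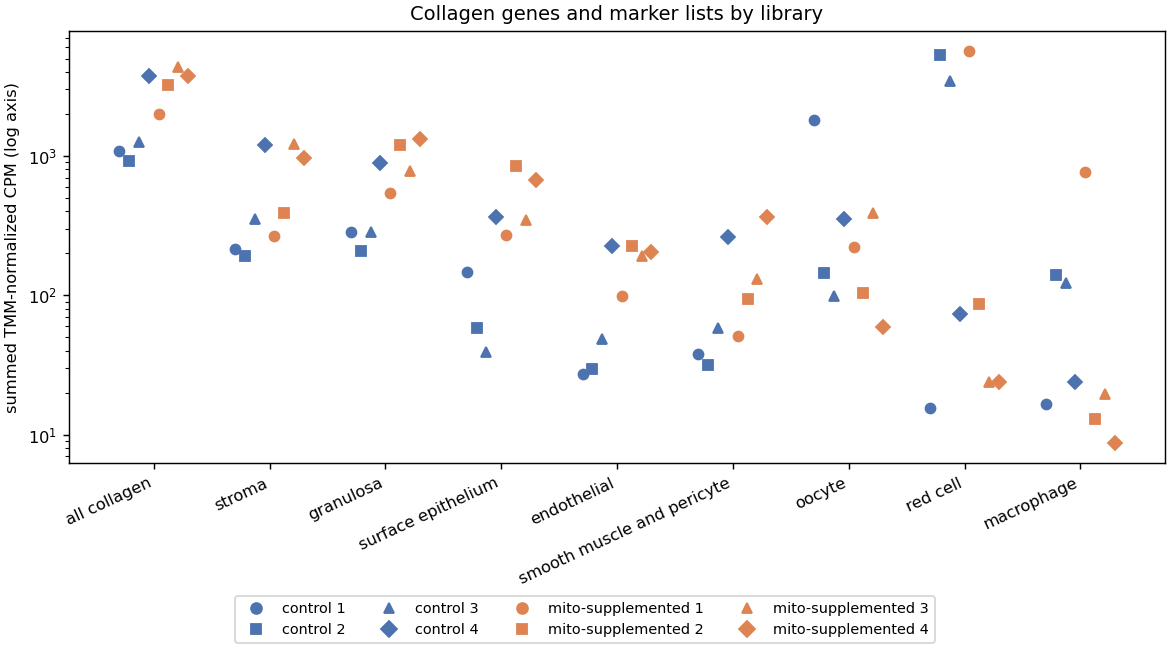
Summed TMM-normalized CPM (y axis, log scale) of the collagen genes and of 8 marker lists (x axis) in each of the 8 libraries, with 1 symbol per library and colours for the groups. For collagen, granulosa and surface epithelium genes, controls 1 to 3 are below all mito-supplemented libraries and control 4 is not; the red cell sum is high in control 2, control 3 and mito-supplemented 1.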

How the data were processed

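The authors trimmed reads (Trim Galore 0.4.4), mapped them to GRCm38/mm10 (STAR 2.5.3a) and counted them on exons with featureCounts, and the deposited values are raw counts per gene symbol; the annotation release and strand setting are not given in the sources used here. A further control library that the authors left out was not analysed here. The 8 libraries were compared in R 4.3.3 with edgeR 4.0.16 (filterByExpr, TMM, quasi-likelihood test, Benjamini-Hochberg adjustment), which kept 13873 genes. Each SE was computed as the log2 fold change divided by the root of its F statistic. Alternatives used the likelihood ratio test, DESeq2 1.42.0, limma 3.58.1, other scalings, filters, offsets, blocks and libraries. Scripts were tested on simulated counts. Lengths and positions are from GENCODE M21.

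The collagen genes and lists were chosen with earlier results of these data known. Values in every library were to be given for the 4 members of highest mean CPM per kb in each class. They were also to be given for members with an unadjusted p under 0.05 and for members called by the likelihood ratio test. From other lists, the 2 most abundant genes by mean CPM, not divided by length, and those with an unadjusted p under 0.05 were named. Other list genes were named after their values were seen, for a call without 1 library or for not passing the filter. Some marker genes were named for not being called or for lying below 0. In these lists, 7 genes were found under older symbols. Python 3.11.15 was used for sequences and figures.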

Additional observations from a re-analysis of the deposited data

Results flagged for a closer look

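In 5 of 106 groups of 4 libraries, the gap between the highest or lowest library and its neighbour, divided by the whole range, was above Dixon's critical value for 4 libraries; chance gives about 1 in 20 such groups. Control 4 accounted for 3 of the 5. It was high for Col14a1, a FACIT collagen, with a gap of 0.837 of the range of the controls on the log2 scale (31.9 CPM against at most 6.05 in the other controls). It was high for the summed basement membrane collagens, at 0.839 (516 CPM against at most 189), and low for Col20a1, at 0.868 (0.197 CPM against at least 2.62). The Col20a1 value is 1 count, below the 0.591 CPM that 3 counts make in control 4, so the size of this gap cannot be read. In control 1, the fibrillar share of the collagen CPM per kb was low, at 0.971 (26.7% against at least 49.2% in the other controls). In mito-supplemented 1, Col17a1, a collagen of epithelial anchoring junctions, was high, at 0.844 (4.60 CPM against at most 1.40 in the other libraries of its group).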

How the results depend on the processing

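The tests, scalings, filter, block, offset and left-out libraries moved the counts more than the directions of the collagen class medians. The medians of the oocyte, smooth muscle and pericyte, red cell and macrophage lists did turn without 1 library. The count of all genes called, 0 with the quasi-likelihood test, came to 58 by the likelihood ratio test, to 141 by DESeq2 and to 2578 by limma-voom and sample quality weights, which gave control 1 a weight of 0.231 and control 3 one of 3.53. For collagen genes, the calls were 1 with DESeq2 and 14 with limma-voom, and 0 in each other alternative fitted with the quasi-likelihood test. The 2 collagen genes at an unadjusted p under 0.05, where 7.71% of all genes were, became 5 with the likelihood ratio test (9.2% of all genes), 6 with DESeq2 (10.9%), 19 with limma-voom (37.6%), 15 with library size only (9.67%), 8 with at least 1 count in any library (7.54%) and 11 with counts summed by code prefix (7.84%); those lower were 2, 2, 1, 0, 1 and 0. Leaving out 1 library gave 1 to 13 such genes (4.04% to 14.1% of all genes), 0 to 1 of them lower, 0 to 6 collagen genes called by the likelihood ratio test (0.137% to 2.61%), and 1 to 12 with every mito-supplemented library above every control (3.42% to 8.61%), a count that was 9 with library size only (6.63%). These last 2 kinds of count, the coding transcript lengths and other scalings of the marker sums were tried after seeing the data.

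With the replicate number as a replicate block, 11 collagen genes had an unadjusted p under 0.05, where 7.07% of all genes had, and 0 were called, and Col6a6 turned to 0.10. The numbers do not pair the samples: deviations of same-numbered libraries from their group means had correlations of -0.244, -0.191, -0.334 and 0.222.

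Over all genes tested, the median of -0.0983 was 0.0375 with limma-voom, 0.173 with library size only, -0.0343 with at least 1 count in any library, -0.0286 with the block and -0.166 with the offset for GC content and length, and -0.102 to 0.0339 without 1 library. The median of all collagens was between 0.526 and 1.33. With library size only, the list median was 1.67 for collagen processing and crosslinking, 1.28 for the basement membrane partners and 1.54 for the fibril-associated matrix. It was 1.8 for granulosa, 1.26 for stroma, 1.57 for endothelial and 1.37 for smooth muscle and pericyte markers. Class medians and class sums moved by less than the pooled SD of the libraries, which control 4 widens. Without control 4, the log2 ratio of the sums moved by 0.709 for all, 0.827 for fibrillar and 0.62 for other collagens, more than the SD of the mito-supplemented sums (0.492, 0.612 and 0.522), as it did with library size only for the first pair.

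Among 47 single genes, the direction turned in 14 of 846 comparisons. These genes were named by level or by p in the same libraries, or after their values were seen. The tally therefore does not measure how firm the directions are. This tally leaves out some of the named marker genes, of which Mfap4, Myh11, Nlrp14, Sox9, Slc4a1, Ptprc and Lyz2 turned without 1 library. Of 59 of the genes named, 46 had a log2 fold change that moved by over 1.5 times without 1 library. With limma-voom, Col5a1 was at -0.0237, Col6a6 at 0.876, Mia3 at 0.172 and Col6a5 at 1.16. Library size only gave Col6a6 0.0522 and Mia3 0.146, the summed counts Col6a6 0.0407, and the offset Col5a1 -0.0374. Without 1 library, Col5a1 was between -0.176 and 0.659, Col6a6 between -0.53 and 0.133, Bgn between -0.0506 and 1.46 and Col6a5 between -1.54 and 0.278. With the coding transcript length, the median ratio was 1.65 for Col1a1 to Col1a2, 0.351 for Col6a1 to Col6a2 and 1.06 for Col3a1 to Col1a1. Except where the alternative itself uses fewer libraries, the cause was not tested. The common coefficient of variation between libraries was 0.771. Counts simulated at the estimated spread and at these depths were used to test the scripts only, and recovery was not split by fold change. Which differences in collagen genes could be detected is therefore not given.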
